A study of Mus musculus with 9 samples.

Results

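The Zscan4 cluster is a tandem array of near-identical genes on mouse chromosome 7, and its members studied here are Zscan4a, Zscan4b, Zscan4c, Zscan4d, Zscan4e and Zscan4f. They were taken by symbol from the read counts of mouse E14 embryonic stem cells (ESCs), with the reads of all copies also summed in each library. Of the 6 symbols, 5 were among the 25239 symbols counted, and all 5 passed the filter on low counts. Zscan4e had no row of its own and was not analysed here. The copies were chosen by their gene family with their raised read counts in the mutant lines already known, so their values are given as a description and with no test.

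RNA was sequenced from 9 libraries in 3 lines of ESCs. The control had the genotype Rbbp4+/+, and the mutants were Rbbp4 Ins/Ins, which carries an insertion allele on both chromosomes, and Rbbp4 Ins/Del, which carries an insertion and a deletion allele, referred to as the Ins/Ins and the Ins/Del clone. Each line had 3 libraries. All lines were E14 cells of the strain labelled 12910la, grown with fetal bovine serum and leukemia inhibitory factor, and each mutant genotype is 1 clone isolated after CRISPR-Cas9 editing, so a property of a clone and an effect of its alleles cannot be told apart. RBBP4 is a histone-binding WD40 protein shared by several chromatin complexes, among them PRC2, NuRD and CAF-1.

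A few cells in a culture of mouse ESCs pass in and out of a state that resembles the 2-cell embryo, in which transcripts of the first activation of the embryonic genome return. Zscan4 genes encode proteins with a SCAN domain and zinc fingers, are transcribed in the late 2-cell embryo, and mark this state in culture. They are known for telomere lengthening by recombination in ESCs. The transcription factor Dux activates many genes of the state, Zscan4 copies included.

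In the GENCODE annotation of GRCm38, the build called mm10, 9 Zscan4 genes lie within 820 kb at chr7:10794242-11614112, and the 6 lettered genes within the first 608 kb. From left to right, Zscan4a lies at chr7:10794242-10799057, Zscan4b at chr7:10900740-10905050, Zscan4c at chr7:11005745-11010547, Zscan4d at chr7:11161374-11166159, Zscan4e at chr7:11306378-11310682 and Zscan4f at chr7:11397915-11402318. Zscan4c and Zscan4f are on the plus strand and the other 4 on the minus strand, and each has 4 exons. The annotation lists Zscan4a as an unprocessed pseudogene. The remaining genes, Zscan4-ps1, Zscan4-ps2 and Zscan4-ps3, had no rows in the counts.

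**Figure D1:**
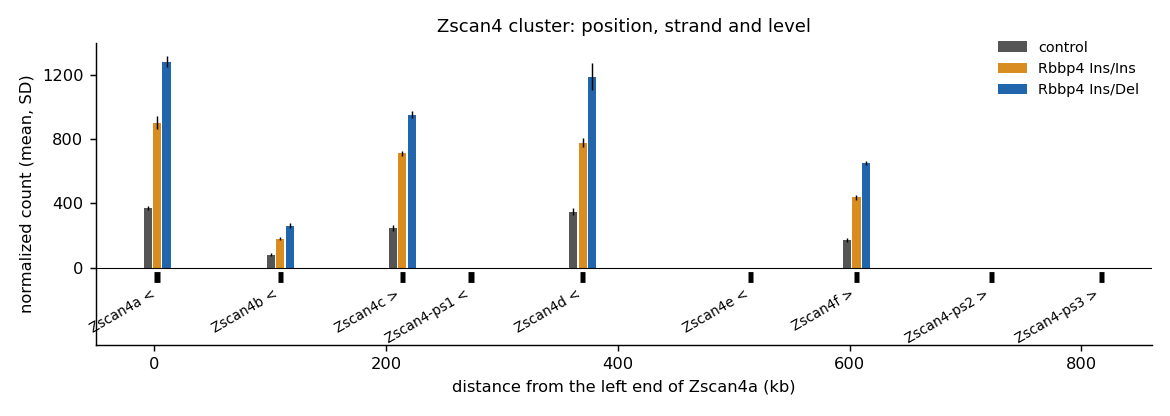
Position of the Zscan4 genes (x axis, kb from the left end of Zscan4a, with < and > for the minus and plus strand) and the mean normalized count of each measured copy in the control, Ins/Ins and Ins/Del (y axis, bars, with the SD of 3 libraries). All 5 measured copies, on either strand, were lowest in the control and highest in the Ins/Del clone.

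The copies differ so little that the sequence sets how well a read can be given to 1 of them. Pairs of the 6 transcripts were 96.6% to 99.7% identical over their aligned bases. Windows of 50 bases were compared where all 6 transcripts align without gaps and Zscan4c, Zscan4d and Zscan4f are coding. Of 1319 such windows, 213 (16.1%) were the same in every copy, and 0 differed between all 6. The window that differs most lies in exon 4 and is shown for each copy, on the strand of the transcript, with the bases that vary between copies in capitals:

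Zscan4a, chr7:10795661-10795710: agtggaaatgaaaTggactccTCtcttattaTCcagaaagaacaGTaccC

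Zscan4b, chr7:10901659-10901708: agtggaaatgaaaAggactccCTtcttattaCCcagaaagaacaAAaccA

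Zscan4c, chr7:11009082-11009131: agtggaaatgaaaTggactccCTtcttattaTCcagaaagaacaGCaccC

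Zscan4d, chr7:11162786-11162835: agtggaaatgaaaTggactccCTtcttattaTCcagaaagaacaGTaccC

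Zscan4e, chr7:11307288-11307337: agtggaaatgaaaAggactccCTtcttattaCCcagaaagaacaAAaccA

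Zscan4f, chr7:11401275-11401324: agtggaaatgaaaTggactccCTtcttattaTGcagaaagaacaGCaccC

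Even here 8 of the 50 bases varied, there were 5 distinct sequences, and Zscan4b and Zscan4e were the same. By contrast, the start of the coding sequence in exon 2 is 1 of the windows found without change in all 6 copies, for example in Zscan4c at chr7:11006556-11006605:

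all copies: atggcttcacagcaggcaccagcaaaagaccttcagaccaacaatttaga

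Windows of 50 bases, the length of each read of a pair, were then searched for in every other annotated transcript. The share of windows found in no other gene was 50.4% for Zscan4d, 36.4% for Zscan4a, 14.5% for Zscan4c, 9.65% for Zscan4b, 8.43% for Zscan4e and 4.66% for Zscan4f. Zscan4b shared 87.1% of its windows with Zscan4e, and Zscan4f shared 84.7% with Zscan4-ps2. How reads with several possible sources were counted is not given in the sources used here, so the split of reads between copies is uncertain, and the sum over copies is given beside each of them. The sum holds the 5 counted copies alone, without Zscan4e or Zscan4-ps2, so its level is uncertain for the same reason.

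The proximal promoters are also alike. RefSeq promoter sequences for GRCm38.p6 matched 4 of the 6 copies, Zscan4b, Zscan4c, Zscan4d and Zscan4f, and these were 94.7% to 99.6% identical over the aligned part of the 250 bases before the annotated start. All 4 held TATAAAAG, a TATA-box sequence, which was found on either strand in 496 of 32851 promoters of the same length (1.51%). Windows around it are shown on the strand of the gene, with this sequence in capitals, to show how little the promoters of the copies differ:

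Zscan4b, chr7:10905054-10905163, minus strand: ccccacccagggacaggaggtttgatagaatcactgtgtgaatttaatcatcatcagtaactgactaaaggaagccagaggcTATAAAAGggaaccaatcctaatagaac

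Zscan4c, chr7:11005609-11005718, plus strand: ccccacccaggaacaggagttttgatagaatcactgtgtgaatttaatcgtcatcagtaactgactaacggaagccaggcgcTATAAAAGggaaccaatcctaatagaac

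Zscan4d, chr7:11166186-11166295, minus strand: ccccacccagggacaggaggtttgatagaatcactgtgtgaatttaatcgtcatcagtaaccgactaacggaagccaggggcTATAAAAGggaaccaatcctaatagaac

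Zscan4f, chr7:11397802-11397911, plus strand: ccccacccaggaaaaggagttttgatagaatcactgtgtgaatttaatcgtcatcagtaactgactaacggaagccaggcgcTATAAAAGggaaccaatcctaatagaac

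The sequence begins 31 bases before the RefSeq start in Zscan4b and Zscan4f, 54 bases before it in Zscan4c and 65 bases before it in Zscan4d, whose RefSeq start differs from the GENCODE end of the gene given above. The match is a description of the sequence, and binding was not measured.

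The summed Zscan4 count was 2.46 times the control level in the Ins/Ins clone and 3.54 times in the Ins/Del clone. Values are normalized counts, that is, reads scaled for the size of each library. The 3 control libraries had 1226, 1222 and 1224 for the sum over copies. The Ins/Ins libraries had 2930, 3077 and 3027, and the Ins/Del libraries 4427, 4232 and 4343. No library of one line overlapped with those of another, and the order was control, Ins/Ins, Ins/Del. The means were 1224 ± 1.82 (SD, n = 3), 3011 ± 75.0 (SD, n = 3) and 4334 ± 98.2 (SD, n = 3). On the log2 scale the differences of the means were 1.30 and 1.82 against the control and 0.53 between the mutants. As a share of all counted reads, the sum was 67.6 CPM (counts scaled to the library total) in the control, 165 CPM in the Ins/Ins clone and 236 CPM in the Ins/Del clone. In bulk RNA, more cells in the 2-cell-like state and more Zscan4 RNA per cell cannot be told apart.

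Each copy showed the same order of lines. Zscan4a had 366, 385 and 366 normalized counts in the control, 861, 938 and 910 in the Ins/Ins clone, and 1280, 1250.0 and 1319 in the Ins/Del clone. The lines did not overlap, and the means were 2.42 ± 0.0735 (SE) and 3.44 ± 0.0808 (SE) times the control. Zscan4d, known as the main copy of 2-cell embryos, had 334, 341 and 372 in the control, 746, 803 and 785 in the Ins/Ins clone, and 1282, 1162 and 1123 in the Ins/Del clone. Its means were 2.23 ± 0.0890 (SE) and 3.40 ± 0.178 (SE) times the control, again with no overlap.

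Zscan4c, known as a main copy of ESCs, had 263, 255 and 226 normalized counts in the control, 719, 694 and 724 in the Ins/Ins clone, and 965, 925 and 964 in the Ins/Del clone. Its means were 2.87 ± 0.135 (SE) and 3.83 ± 0.181 (SE) times the control, the highest ratios among the 5 copies in both mutants. Zscan4f had 187, 165 and 166 in the control, 421, 453 and 437 in the Ins/Ins clone, and 640, 651 and 663 in the Ins/Del clone. Its ratios were 2.53 ± 0.118 (SE) and 3.77 ± 0.162 (SE), the latter within the SE of that of Zscan4c.

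Zscan4b had the fewest reads of the 5, with 75.2, 75.4 and 94.2 normalized counts in the control, 183, 190 and 170 in the Ins/Ins clone, and 261, 244 and 274 in the Ins/Del clone. Its means were 2.22 ± 0.184 (SE) and 3.18 ± 0.268 (SE) times the control, the lowest ratios of the 5, though those of Zscan4d lay within these SEs. Both mutants are set against the same control libraries, so the ratios of a copy in the 2 mutants are not independent.

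**Figure D2:**
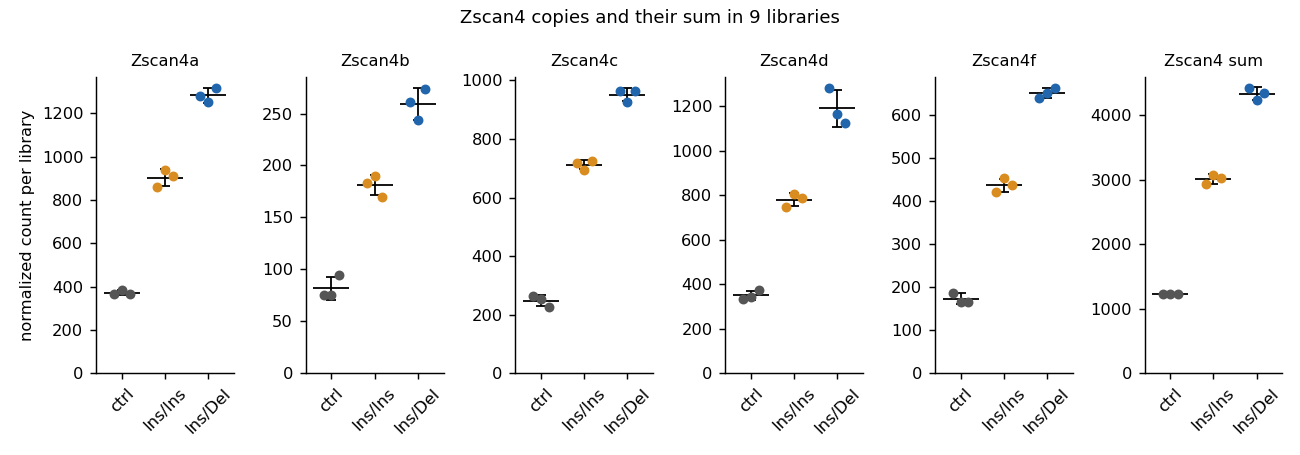
Normalized counts (y axis, linear and from 0) of Zscan4a, Zscan4b, Zscan4c, Zscan4d, Zscan4f and their sum in the 9 libraries (points) of the control, Ins/Ins and Ins/Del, with the mean and SD of each line in black. In every panel the lines are separate, and the sum runs from 1222 to 1226 in the control, 2930 to 3077 in the Ins/Ins clone and 4232 to 4427 in the Ins/Del clone.

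Among all 14125 genes tested, differences between the lines were common, with 58.4% of genes past an adjusted p of 0.01 between Ins/Ins and the control and 62.5% between Ins/Del and the control (edgeR quasi-likelihood fit). Every Ins/Ins library was above every control library for 34.9% of genes, every Ins/Del library for 35.9%, and every Ins/Del library was above every Ins/Ins library for 17.4%. The order control, Ins/Ins, Ins/Del with no overlap was found for 9.81% of genes. All 5 copies showed it, but they were chosen for their difference between lines and share reads, so nothing is read from that count. A call above the control with an estimate over 2-fold in both mutants was made for 6.58% of genes.

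The copies made up steady parts of the sum. Zscan4a gave 28.9% to 31.5% of Zscan4 reads in the 9 libraries, Zscan4d 25.5% to 30.4%, Zscan4c 18.5% to 24.5%, Zscan4f 13.5% to 15.4% and Zscan4b 5.62% to 7.69%. The share of Zscan4c was 20.3% ± 1.58 (SD, n = 3) in control libraries, 23.7% ± 1.01 (SD, n = 3) in the Ins/Ins clone and 21.9% ± 0.212 (SD, n = 3) in the Ins/Del clone, and the libraries of the 3 lines did not overlap. Zscan4d took 28.5% ± 1.66 (SD, n = 3) in control libraries and 25.8% ± 0.339 (SD, n = 3) in the Ins/Ins clone, without overlap, while its 27.4% ± 1.54 (SD, n = 3) in the Ins/Del clone overlapped with both. The shares of Zscan4a, Zscan4b and Zscan4f overlapped between all lines. In a single library the counting error was of similar size: the Zscan4c share of the third control library was 18.5%, with an exact Clopper-Pearson interval at the 95% level of 16.3% to 20.9%. Such intervals cover counting error only.

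**Figure D3:**
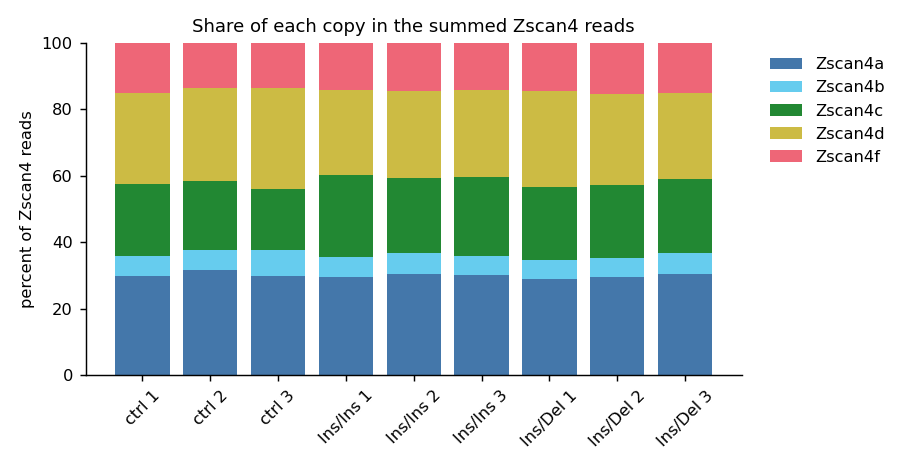
Percent of the summed Zscan4 reads (y axis) from each of the 5 measured copies (stacked colours) in each of the 9 libraries (x axis). Zscan4a and Zscan4d are the largest parts in every library and Zscan4b the smallest, at 5.62% to 7.69%.

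The order of the copies depended on the length used to scale them. Per kb of transcript, Zscan4a had the highest mean level in the control at 163 normalized counts, followed by Zscan4d at 154, Zscan4c at 109, Zscan4f at 94.5 and Zscan4b at 45.9. Per 100 windows found in no other gene, Zscan4f was highest in the control at 208, followed by Zscan4c at 77.0, Zscan4b at 48.9, Zscan4a at 45.9 and Zscan4d at 31.2. In the Ins/Del clone the same measure was 785 for Zscan4f and 106 for Zscan4d. The levels of single copies are therefore not ranked further here.

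**Figure D4:**
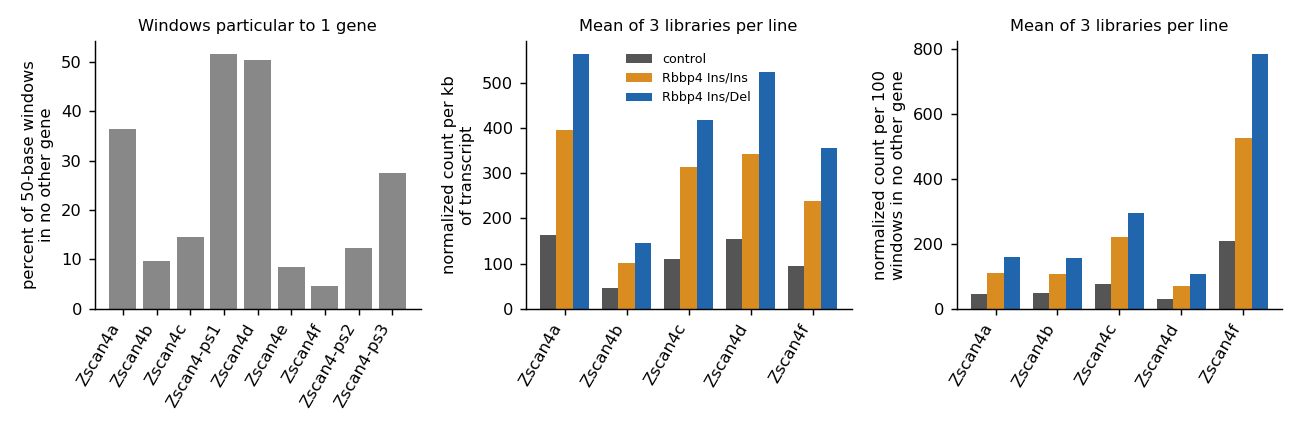
Left, percent of 50-base windows of each Zscan4 transcript found in no other gene (y axis). Middle and right, mean normalized count of each measured copy per kb of transcript and per 100 such windows in the 3 lines (y axis, bars, 3 libraries each). Zscan4a leads per kb and Zscan4f leads per 100 windows, at 208 in the control and 785 in the Ins/Del clone.

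Reads were confined to the Zscan4 genes in this stretch of the chromosome, as far as the 10 nearest measured genes show. Of the 5 neighbours on each side, mostly vomeronasal receptor genes, 9 had no read in any of the 9 libraries, and Nlrp4b, an NLR family gene, had 1 read in all. Mir297-1, a microRNA gene between the copies, had 0 reads, though libraries of this kind do not capture mature microRNAs. The next gene on the left with reads was Zik1, a zinc finger gene, named after its values were seen. Its mean was 457 ± 23.0 (SD, n = 3) for the control, 308 ± 30.4 (SD, n = 3) for Ins/Ins and 286 ± 9.73 (SD, n = 3) in the Ins/Del clone, so it fell where the Zscan4 copies were higher. Its log2 fold changes were -0.58 (SE 0.0756, adjusted p = 1.3e-08) and -0.68 (SE 0.0766, adjusted p = 4.3e-10) in the quasi-likelihood fit of edgeR, adjusted by Benjamini-Hochberg over all tested genes.

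Other genes of the 2-cell-like state were higher together with Zscan4. Of a list of 47 such genes, 45 were among the counted symbols and 36 had enough reads to test. At an adjusted p of at most 0.01 in the edgeR quasi-likelihood fit, 34 rose and 1 fell in the Ins/Ins clone, where 29.0% of all tested genes rose and 29.4% fell. In the Ins/Del clone, 34 rose and 0 fell, against 30.6% and 31.9% of all tested genes. The median log2 fold change of the list was 1.55 and 1.91, beside 0.004 and -0.011 over all tested genes. Every mutant library was above every control library for 35 of the 36 genes, against 30.4% of all tested genes. In both mutants, 29 of the 36 were called higher with an estimate over 2-fold, against 6.58% of all tested genes. The list was written with earlier results of these libraries known and is no independent evidence of its direction.

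Usp17le, a deubiquitinase gene of the multicopy Usp17l family, had 139, 142 and 140 normalized counts in the control, 654, 590 and 642 in the Ins/Ins clone, and 879, 846 and 862 in the Ins/Del clone. The lines did not overlap. Its log2 fold changes were 2.17 (SE 0.0751, adjusted p = 2.2e-25) and 2.62 (SE 0.0719, adjusted p = 7.8e-29) in the edgeR quasi-likelihood fit. Tdpoz3, a TRAF and POZ domain gene, had 14.4 ± 7.24 (SD, n = 3), 76.2 ± 10.1 (SD, n = 3) and 104 ± 4.54 (SD, n = 3) in the 3 lines. Tcstv3, whose transcript is known from 2-cell embryos, had 16.8 ± 2.80 (SD, n = 3), 60.7 ± 5.65 (SD, n = 3) and 91.5 ± 8.41 (SD, n = 3). Both rose in both mutants, with log2 fold changes of 2.38 and 2.84 for Tdpoz3 and of 1.83 and 2.41 for Tcstv3.

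AF067061 had 13.2 ± 3.48 (SD, n = 3), 67.5 ± 7.43 (SD, n = 3) and 95.4 ± 10.5 (SD, n = 3) normalized counts, and Gm13119 had 90.2 ± 7.64 (SD, n = 3), 352 ± 3.57 (SD, n = 3) and 387 ± 9.33 (SD, n = 3). Trim43a, a tripartite motif gene, had 2, 3 and 3 reads in the control libraries. Its ratio of summed reads was 7.49 in the Ins/Ins clone (counting interval 3.56 to 18.2) and 6.07 in the Ins/Del clone (2.84 to 14.9). Many of these genes belong to families of near-identical copies, and their single values carry the same uncertainty as those of the Zscan4 copies.

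The genes named next were picked after their values were seen. Dux, the activator of the state, was near the lower end of detection, with 7.98 ± 2.96 (SD, n = 3) normalized counts in the control, 17.8 ± 2.35 (SD, n = 3) in the Ins/Ins clone and 17.3 ± 2.73 (SD, n = 3) in the Ins/Del clone. Its log2 fold change was 1.10 in the Ins/Ins clone (SE 0.367, adjusted p = 0.0083) and 1.07 in the Ins/Del clone (SE 0.370, adjusted p = 0.0103) in the edgeR quasi-likelihood fit, so that Dux passed the limit in the former alone, and its difference between the mutants was -0.03 (adjusted p = 0.963). Zfp352, a zinc finger gene of the 2-cell embryo, rose from 25.5 ± 2.42 (SD, n = 3) to 70.5 ± 11.7 (SD, n = 3) and 93.6 ± 5.74 (SD, n = 3). Fgf1, a growth factor gene, was the gene that fell in the Ins/Ins clone, with a log2 fold change of -0.52 there and of -0.25 in the Ins/Del clone, the latter not past the limit. Gm21319, at 7.26 normalized counts in the control, was the gene that passed in neither direction in the Ins/Ins clone, with a log2 fold change of 0.72 (adjusted p = 0.109 in the same edgeR fit).

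**Figure D5:**
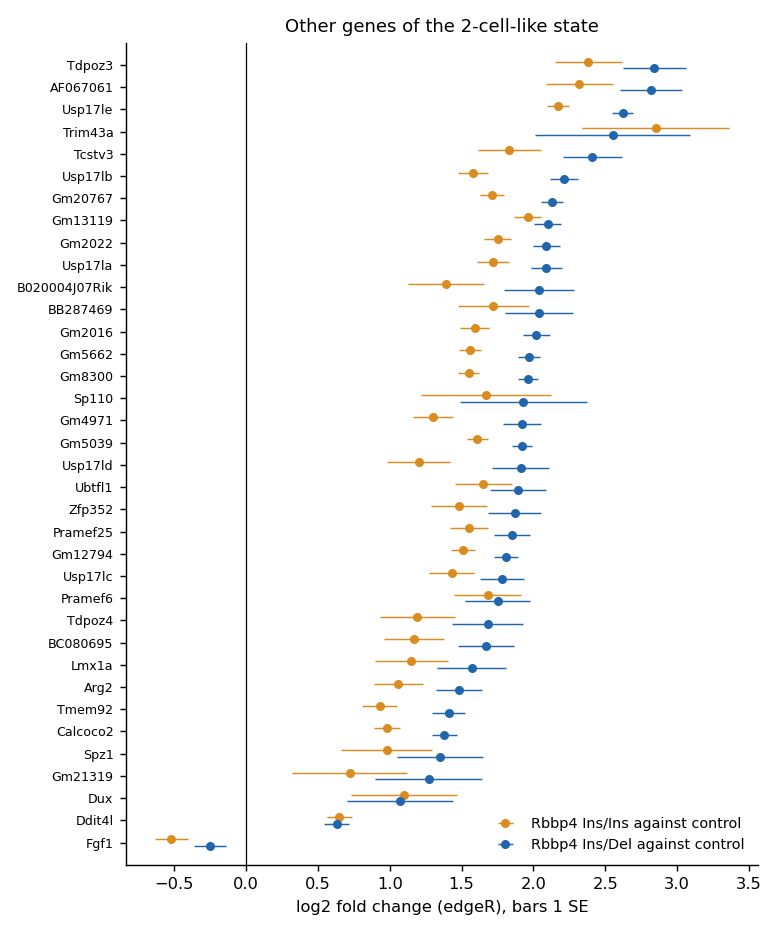
Log2 fold change of the 36 tested genes of the 2-cell-like list (rows) in the Ins/Ins and Ins/Del clones against the control (x axis, points, bars of 1 SE from the edgeR fit over all genes). The estimates lie above 0 for 35 genes in both mutants, and Fgf1 is the exception in both.

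Between the mutants, 33 of the 36 listed genes had higher estimates in the Ins/Del clone, as the Zscan4 sum did, and Dux, Trim43a and Ddit4l were the exceptions. Over all tested genes, with a median difference of -0.004, lower estimates were at least as common as higher ones. Many listed genes are near-identical copies, so the 36 are not separate observations. At an adjusted p of at most 0.01, 15 genes were higher in the Ins/Del clone than in the Ins/Ins clone and 0 lower, against 6.17% and 4.64% of all tested genes (edgeR quasi-likelihood fit). The median log2 difference of the list was 0.41, beside 0.53 for the Zscan4 sum and -0.004 over all tested genes. Over all genes, 1527 differed between the mutants, and 1014 without the first Ins/Ins library or 988 without the second Ins/Del library. Rbbp4 itself did not follow this order. It had 10004 ± 98.5 (SD, n = 3) normalized counts in the control, 5604 ± 153 (SD, n = 3) in the Ins/Ins clone and 10358 ± 237 (SD, n = 3) in the Ins/Del clone, which does not report on the level or function of the mutant proteins.

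The genes whose levels over the 9 libraries were most like the Zscan4 sum were not of the 2-cell-like list. Pearson's r of log2 normalized counts, computed for 12707 genes with a mean above 20, was 0.999 for Etv4, an ETS transcription factor gene, 0.999 for Jarid2, which encodes an accessory subunit of PRC2, 0.998 for Arntl2, a clock gene paralogue, 0.998 for Pitpnc1 and 0.997 for Xlr3b. Etv4 had 517 ± 21.3 (SD, n = 3), 1211 ± 8.90 (SD, n = 3) and 1704 ± 38.2 (SD, n = 3) in the 3 lines, a pattern of size similar to that of Zscan4. The closest gene of the 2-cell-like list was Usp17lb, with r of 0.995 and rank 40. The median over the 32 listed genes compared was 0.982, with a range from -0.619 to 0.995, beside -0.015 over all genes compared. These correlations describe 9 points that fall into 3 lines and mostly repeat the order of the lines.

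Libraries within a line gave little to compare the copies by. After subtraction of the line means, the median r over the 10 pairs of copies was 0.047, with a range from -0.747 to 0.458, while the median r of their levels was 0.991. The spread of the sum over control libraries was 0.148% of its mean, and counting error alone gives 2.84%. In the Ins/Ins and Ins/Del clones the spread was 2.49% and 2.26%, against 1.82% and 1.53% from counting. Leaving out any 1 library kept the log2 difference of the sum between 1.28 and 1.32 in the Ins/Ins clone and between 1.81 and 1.84 in the Ins/Del clone.

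Known regulators of the 2-cell-like state moved in both directions. Of 30 listed, 10 rose and 9 fell in the Ins/Ins clone, and 11 rose and 11 fell in the Ins/Del clone, with a median log2 fold change of 0.04 in both. The counts are near the background, as 29.0% of all tested genes rose and 29.4% fell in Ins/Ins, and 30.6% and 31.9% in Ins/Del. The regulators named next are those with the largest changes. Tbx3, a T-box factor, had 740, 759 and 720 normalized counts in the control, 2898, 2772 and 2691 in the Ins/Ins clone, and 3252, 3290 and 3074 in the Ins/Del clone, with no overlap between lines and log2 fold changes of 1.91 and 2.12. Lin28a, an RNA-binding protein gene, fell from 13713 ± 229 (SD, n = 3) to 5097 ± 145 (SD, n = 3) and 4674 ± 135 (SD, n = 3). Dppa3, a maternal factor known to take part in activating the state, fell from 417 ± 6.48 (SD, n = 3) to 342 ± 13.5 (SD, n = 3) and 181 ± 21.1 (SD, n = 3), opposite to the order of Zscan4. Zmym2 and E2f6, both linked to repression of the state, fell with log2 fold changes of -0.74 and -0.66 in the Ins/Ins clone and of -0.68 and -0.73 in the Ins/Del clone. Mga, a subunit of the PRC1.6 repressor complex, rose by 0.41 and 0.50.

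Genes of telomere maintenance and of meiotic recombination likewise moved in both directions. Of 21 listed, 20 were tested, of which 6 rose and 3 fell in the Ins/Ins clone, and 6 rose and 4 fell in the Ins/Del clone. Over all tested genes, 29.0% rose and 29.4% fell in the former and 30.6% and 31.9% in the latter. The rising counts were thus near the background and the falling ones below it, over few genes. Smc1b, which encodes a meiotic cohesin subunit, had 193 ± 6.44 (SD, n = 3) normalized counts in the control, 809 ± 54.7 (SD, n = 3) in Ins/Ins and 870 ± 50.2 (SD, n = 3) in Ins/Del. The mutant libraries were all above the control ones, and Smc1b rose by 2.06 and 2.17 on the log2 scale. Tinf2, a shelterin gene, fell from 803 ± 26.8 (SD, n = 3) to 445 ± 50.2 (SD, n = 3) and 395 ± 8.92 (SD, n = 3). Atrx, a chromatin remodeller gene, changed by -0.28 and -0.42, Wrap53, a telomerase cofactor gene, by 0.43 and 0.54, and Terf2, another shelterin gene, by 0.34 and 0.19, the latter 0.15 and not called without the third Ins/Del library. Dmc1, the meiotic recombinase gene, had log2 fold changes of 0.25 and 0.18, and its call in the Ins/Ins clone was lost with DESeq2 and without the first or the third control library or the first Ins/Ins library.

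Relatives of Zscan4 with a SCAN domain were mostly not called in its direction. Of 28 other SCAN genes listed, 27 were tested, of which 3 rose and 8 fell in the Ins/Ins clone, and 2 rose and 7 fell in the Ins/Del clone, with median log2 fold changes of -0.08 and -0.13. The falling genes were near the background of 29.4% and 31.9% of all tested genes, and the rising ones are set against 29.0% and 30.6%. Zscan5b, a SCAN zinc finger gene, had 31.2 ± 4.29 (SD, n = 3) normalized counts in the control, 203 ± 14.5 (SD, n = 3) in Ins/Ins and 251 ± 12.2 (SD, n = 3) in Ins/Del. The lines did not overlap, and the fitted levels were 6.51-fold (adjusted p = 9.9e-20) and 8.04-fold (adjusted p = 7.8e-22) those of the control in the edgeR quasi-likelihood fit. Zkscan7, Zkscan8, Zkscan17 and Zscan22 fell in both mutants, with log2 fold changes between -1.26 and -0.53. Scand1, which encodes a SCAN domain without zinc fingers, changed by -0.43 and -0.38, and both calls were lost with DESeq2 and without the first or second control library. The call of Scand1 in Ins/Ins was also lost without the third Ins/Ins library, and that in Ins/Del without the first or the third Ins/Del library.

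The labelled cell type was checked against its markers. The summed level of 8 pluripotency genes was 76843 to 80087 normalized counts in the control, 95842 to 96903 in the Ins/Ins clone and 98250 to 101023 in the Ins/Del clone. All libraries thus held ESC transcripts, and the sum was higher in the mutants, though not every gene was. Of the 8, 6 rose and 1 fell in the Ins/Ins clone, and 5 rose and 0 fell in the Ins/Del clone. Pou5f1 was the gene that fell, with means of 18059, 16615 and 17668 in the 3 lines. In the Ins/Del clone Pou5f1, Sox2 and Tdgf1 were not called, and in the Ins/Ins clone Tdgf1 was not. Trophoblast markers summed to 4852 to 5322, 2637 to 2802 and 1781 to 1862 in the 3 lines. Cdx2 had means of 30.1, 2.40 and 2.48, Krt8 of 1503, 234 and 187, and Krt18 of 2091, 381 and 266. Eomes had means of 193, 322 and 271, and Tfap2c of 1260, 1763 and 1086. Of the 7 trophoblast markers, 6 were tested, of which 2 rose and 3 fell in Ins/Ins, and 1 rose and 5 fell in Ins/Del. The Ins/Del call of Hand1 was lost with DESeq2 and without the first or second library of either the control or Ins/Del. Primitive endoderm markers summed to 366 to 393, 206 to 267 and 315 to 343. Of these 6, 1 rose and 2 fell in Ins/Ins, and 4 rose and 2 fell in Ins/Del, where the calls of Sox17 and Pdgfra were lost with DESeq2. The calls of Gata4 and Pdgfra were lost without the second control library, and the call of Sox17 was lost without any 1 control library, the third Ins/Ins library, or the first or second Ins/Del library. All these shares are over few genes, beside 29.0% higher and 29.4% lower in Ins/Ins and 30.6% and 31.9% in Ins/Del over all tested genes. Of the 8 fibroblast markers, 6 were tested, of which 2 rose and 4 fell in Ins/Ins, and 1 rose and 4 fell in Ins/Del. Col1a1 had means of 287, 17.0 and 24.4 in the 3 lines, and Thy1 of 45.7, 246 and 312. The sum of the fibroblast list, mostly Fn1, was 27275 to 28372, 30373 to 30750 and 26371 to 28195. The pluripotency sum was higher in both mutants, and the trophoblast sum was lower, mainly through Krt8 and Krt18. The primitive endoderm sum, mostly Dab2 in the control, and the fibroblast sum did not follow the order of Zscan4. Dab2 had means of 265, 104 and 109, and Sox7 of 22.2, 70.8 and 106. By their means, Sox7, Gata6 and Sox17 followed that order, and Gata4, Pdgfra and Dab2 did not. The part of these levels in the Zscan4 values was not tested.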

How the data were processed

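Libraries of E14 ESC RNA were prepared by the authors with the Kapa mRNA HyperPrep kit and sequenced as paired-end reads of 50 bases. Per the labels, reads were aligned to mm10 with STAR 2.7.3 and counted with HTSeq. The deposited counts are whole-number reads per gene symbol, 15838064 to 21366868 per library. HTSeq settings and the annotation are not given in the sources used here. The study tested with DESeq2 1.22.2. Separate cultures are not stated, so p-values measure the spread between these samples, which may be technical.

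Libraries were grouped by genotype label. In edgeR 4.0.16 (R 4.3.3), all 9 libraries were fitted with TMM factors and filterByExpr, leaving 14125 genes. The quasi-likelihood test was adjusted by Benjamini-Hochberg (limit 0.01), and SEs come from the fit. Normalized counts are counts divided by effective library size times the mean effective size. SEs of Zscan4 ratios combine the spreads of both means. The script was tested on simulated data. Alternatives were DESeq2 1.42.0, other scalings, no filter, only the lines compared, the replicate number as a term and left-out libraries or copies. The Zscan4 copies and gene lists were chosen with earlier results of these data known. Genes named were up to 6 of each list with the largest mean log2 fold change, the 5 most like the Zscan4 sum, and neighbours, of which some are not reported here. Sequences come from GENCODE M21 transcripts and RefSeq promoters.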

Additional observations from a re-analysis of the deposited data

Results flagged for a closer look

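Among the genes that the naming rule took from the lists, and Rbbp4, the following had an effect that differed between the mutants by the edgeR quasi-likelihood test of the Ins/Del clone against Ins/Ins, at an adjusted p of at most 0.01, where 10.8% of all tested genes did. The values are log2 differences, Ins/Del minus Ins/Ins. Of the 2-cell-like genes named, Usp17le differed by 0.45 and Tcstv3 by 0.58, in the direction of the Zscan4 sum. Of the regulators, Tbx3 differed by 0.20, Lin28a by -0.13 and Dppa3 by -0.93. Atrx differed by -0.14 and Zkscan17 by -0.21. Rbbp4 itself differed by 0.89. Among the markers of cell types, Zfp42 differed by 0.15, Sox7 by 0.59, Pdgfra by 0.93, Krt18 by -0.53, Tfap2c by -0.70, Thy1 by 0.34 and Fn1 by -0.16. Groups of 3 libraries were too small for a check of single outlying libraries.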

How the results depend on the processing

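Of the results for whole lists, all genes and the Zscan4 sum, 227 of 231 values under other settings kept their direction and moved by less than the limit set for a change. The log2 difference of the sum between Ins/Ins and the control was 1.30, and 1.24 without Zscan4c or 1.35 without Zscan4d, the copies with the highest ratio and with one of the lowest. With each library left out in turn, genes called between the mutants ranged from 988 to 1646, from 1527 with all libraries, being 1014 without the first Ins/Ins library and 988 without the second Ins/Del library, and the cause was not tested. Of 118 values for single named genes, 10 lost their call in at least 1 setting and 0 reversed. Same-numbered libraries of different lines had correlated deviations between -0.028 and 0.056 over 9 pairs, and not every library correlated best with its own number, so the numbers did not pair the samples. With the replicate number as a block, the Zscan4 log2 difference was 1.30 in the Ins/Ins clone and 1.82 in the Ins/Del clone, 34 of the 2-cell-like genes rose in each mutant, and 1499 genes differed between the mutants. Zscan4e could not be left out of the sum, nor Zscan4-ps1, Zscan4-ps2 and Zscan4-ps3 added to it, since they were not among the counted symbols. Depth limits the values of genes with few reads per library, such as Dux and Trim43a, and sequence identity limits the split between copies at any depth.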

Other observations

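Deviations of the Zscan4 sum from the line means over the 9 libraries were compared with those of 12707 genes. Among the 5 most alike were Rrm2b (Pearson's r 0.976), a p53-regulated ribonucleotide reductase gene, Herc4 (0.963) and Atp23 (0.948). They were picked as the highest of 12707 values of r over 9 libraries. These values ranged from -0.978 to 0.976, so nothing is read from the genes at the top. The median over 32 genes of the 2-cell-like list was 0.06, with a range from -0.633 to 0.577. Rrm2b had 131 ± 2.86 (SD, n = 3) normalized counts in the control, 148 ± 18.4 (SD, n = 3) in the Ins/Ins clone and 124 ± 13.5 (SD, n = 3) in the Ins/Del clone. Xlr3b, an X-linked gene among those whose levels were most like the Zscan4 sum, had 6 reads in all control libraries together. Its ratio of summed reads to the control was 15.7 in the Ins/Ins clone (counting interval 6.97 to 44.0) and 48.5 in the Ins/Del clone (counting interval 22.0 to 133).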
